A study of Ovis aries with 26 samples.

Results

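Dendritic cells and related antigen-presenting cells were followed in the developing sheep pancreas. They were selected by a rule on single-cell counts, which required at least 1 UMI (1 counted RNA molecule) of IRF8, at least 1 UMI of PLD4 or LAMP3, and no UMI of CD3E (T cells), CD79B (B cells), C1QA, C1QB or C1QC (macrophages) or PECAM1 (endothelium). Of the 109501 deposited barcodes, 79510 held over 200 and under 6000 genes with under 25% mitochondrial UMIs and were kept, and 242 of these met the rule. They are called the selected cells here.

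Dendritic cells take up proteins, cut them into peptides and display them to T cells on major histocompatibility complex (MHC) class II molecules. Conventional type 1 cells depend on the transcription factors IRF8 and BATF3 and pass antigen to killer T cells. Conventional type 2 cells mainly address helper T cells, plasmacytoid cells depend on TCF4 and are known for interferon release, and dendritic cells that mature and migrate to lymph nodes gain LAMP3 and CCR7.

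The study compared the pancreas of sheep lacking CFTR, the chloride channel whose loss causes cystic fibrosis (CF), with that of non-CF sheep by droplet-based single-cell RNA sequencing. The 26 libraries came from 23 animals, which are the replicates here. The non-CF groups held 4 fetuses at 80 days of gestation (2 WT and 2 HZ, that is CFTR+/-), 3 WT fetuses at 120 days and 4 WT newborns at term. The CF (CFTR-/-) groups held 3 fetuses at 80 days, 6 at 120 days and 3 newborns at term, of which 3 animals gave 2 libraries each, and these were averaged as 1 animal for shares and summed for gene levels. The 80-day CF fetuses were all cloned from 1 male fibroblast line with CFTR targeted in exon 2, as were donors 1 to 4 at 120 days and donor 3 at term, while the remaining CF animals and all non-CF animals were naturally bred. Non-CF donors 2, 3 and 4 at 80 days were triplets and the naturally bred CF fetuses at 120 days, donors 5 and 6, were twins. WT donors 1 and 2 at 120 days are numbered like littermates in the study's animal list, though the study does not state that they were. The 3 cloned CF fetuses at 80 days came from 2 recipient ewes and the 4 at 120 days from at most 3. All 80-day fetuses were male, and the 4 naturally bred CF animals were female. Age, breeding and sex therefore cannot be told apart in parts of the design.

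Libraries held 1612 to 13488 deposited barcodes and 943 to 9543 kept barcodes. The median depth was 3425 to 24633 UMIs per kept barcode, lowest in CF 120-day donor 3. The selected cells had a median of 11862 UMIs and 2676 genes. Over the 325 pairs of libraries, a pair shared a median of 2 and at most 12 barcode sequences (WT 120-day donor 1 with WT term donor 2, 0.458% of the smaller library), and no barcode was selected in both libraries of a pair. No selected cell was found in 3 animals, WT term donor 1 and CF 120-day donors 3 and 4. Counting 0 of 1082, 0 of 943 and 0 of 2640 kept barcodes allows shares of up to 0.277%, 0.318% and 0.114%, respectively, taken as 3 counts of each total. The upper limits of the two-sided 95% exact binomial intervals were 0.340%, 0.390% and 0.140%, and both limits cover counting error alone.

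IRF8 ranged up to 78 UMIs in a selected cell, with a median of 4. Near the threshold, 61 cells had exactly 1 UMI of IRF8, 67 had exactly 1 UMI of PLD4 and LAMP3 together, and 37 were at the minimum for both. In all, 895 kept barcodes met the requirements for IRF8 and for PLD4 or LAMP3, and 653 of them were left out for an excluded gene, most often PECAM1 (438 barcodes) or a C1Q gene (292 to 299 barcodes), with 116 left out for a single UMI. Free RNA can give such UMIs too. Among 9237 stromal barcodes without PTPRC (median 6450 UMIs), IRF8 was found in 5.78%, PLD4 in 0.173% and LAMP3 in 0.0650%. Among 10120 endocrine barcodes without PTPRC (median 12308 UMIs), the shares were 9.94%, 0.198% and 0.267%. The whole rule was met by 1 stromal and 5 endocrine barcodes, so a UMI of IRF8 alone was common in these sets and a UMI of PLD4 or LAMP3 was not. The macrophage, B cell and T cell sets described below differed. PLD4 was found in 30.1%, 10.1% and 0% of them, respectively, and LAMP3 in 1.18%, 34.4% and 19.1%. IRF8 was found in 48.8%, 25.8% and 3.95%.

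The selected cells carried high levels of the MHC class II machinery. Levels are given in CPM, the UMIs of a gene summed over a set of cells per 1000000 UMIs of that set. CD74, the chaperone of class II molecules, stood at 4419 CPM in the selected cells and 60.9 CPM in all other kept barcodes, and 86.8% of the selected cells held a UMI of it. The class II chain gene DRA stood at 2811 against 33.4 CPM, DBQ at 1151 against 17.9 CPM and the peptide-loading gene HLA-DMB at 410.4 against 7.02 CPM. CTSS, the protease that trims CD74, stood at 1471 against 34.9 CPM. These levels were not particular to the selected cells: a macrophage set (592 barcodes with at least 3 C1Q UMIs) held 3243 CPM of CD74 and 1973 CPM of DRA, and a B cell set (427 barcodes with CD79A and CD79B) held 2999 and 1238 CPM. Since the cells were picked from these same libraries, all contrasts with other barcodes are descriptions without a test.

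On the log2 ratio of CPM with 20 CPM added, 11 of 14 measured class II genes stood at least 2-fold above the other barcodes, with a list median of 3.75. Over all 7851 genes with at least 10 CPM in either set, 676 (8.61%) did so and the median was 0.26. MHC class I and peptide-loading genes, which serve display to killer T cells, followed with 6 of 8 and a median of 1.67. Their sum of 3424 CPM in the selected cells was lower than in the macrophage (4049 CPM), B cell (3651 CPM) and T cell (6324 CPM) sets. Apart from the genes of the rule, the 15 genes with the highest ratio included CD74 (5.78), DRA (5.73), DBQ (4.95), CTSS (4.76), DQB (4.53) and DQA (4.19). They also held AIF1 (4.04) and TYROBP (3.77), both known from myeloid cells, the signaling regulators RGS1 (4.04) and LAPTM5 (3.74), and CD83 (3.97), a surface protein of activated dendritic cells. The complement protease gene C1R (4.43) and PLAC8 (4.24) were in the same list.

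**Figure D1:**
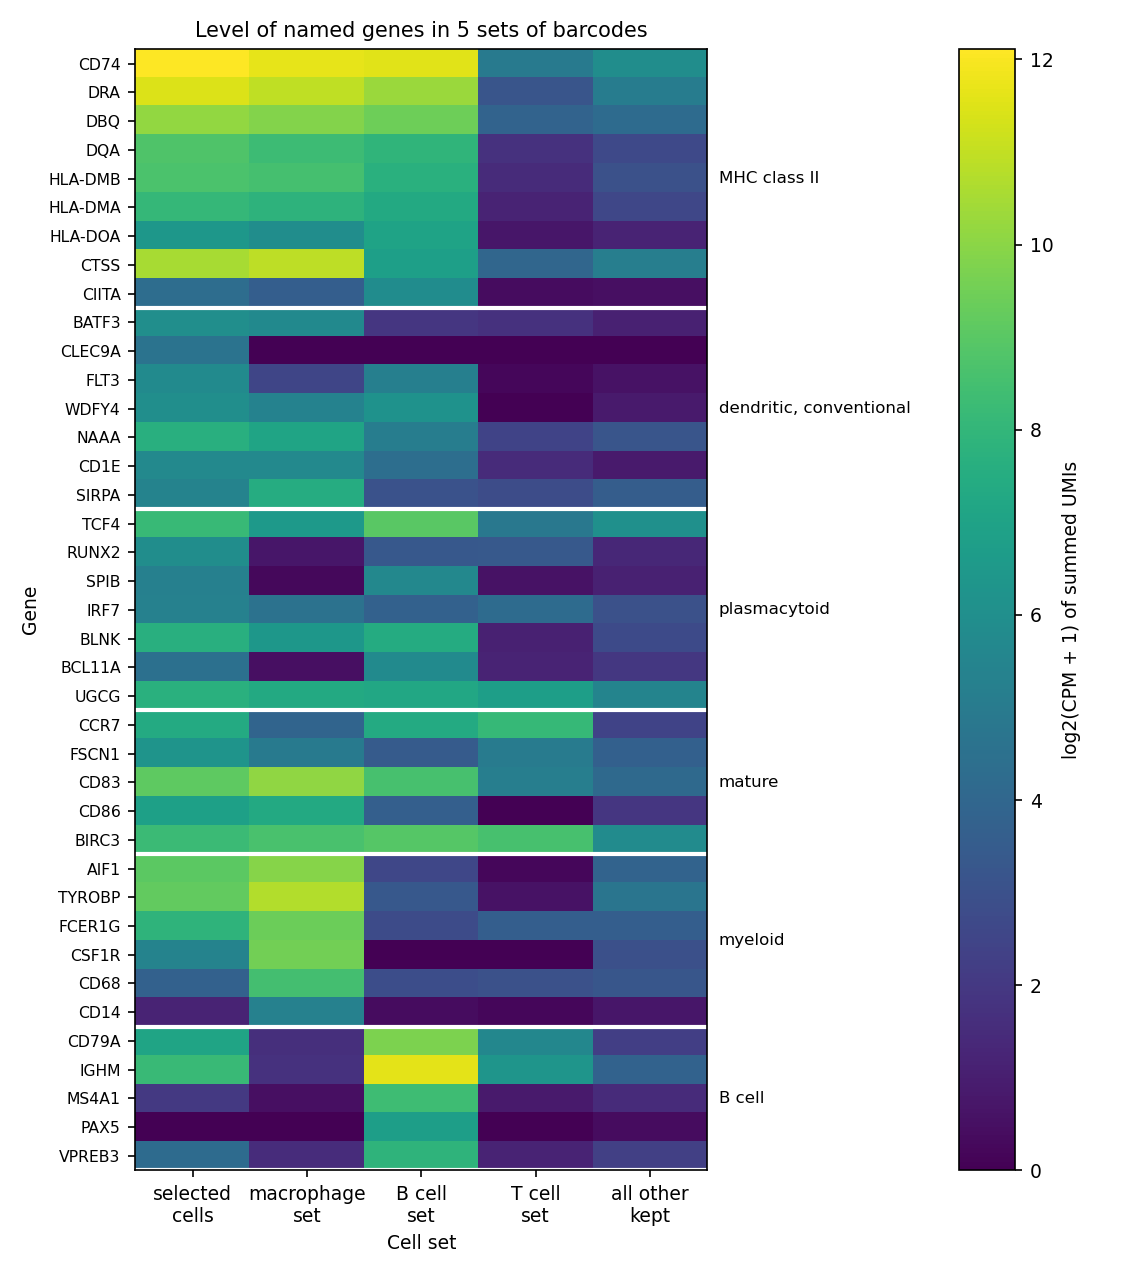
Level of each gene as log2(CPM + 1) of summed UMIs in the 242 selected cells, the macrophage, B cell and T cell sets and all other kept barcodes, with genes grouped by list. The class II genes are bright in the selected cells, the macrophage set and the B cell set, whereas CLEC9A has 0 CPM in the macrophage, B cell and T cell sets and 23.7 CPM in the selected cells.

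The marker BATF3, which the rule did not use, was found in 24.8% of the selected cells and stood at 62.6 CPM, against 1.19 CPM in other barcodes. It was also present at 52.1 CPM in the macrophage set. In the list of type 1 dendritic genes, 7 of 9 measured genes stood at least 2-fold above other barcodes (median 1.58). CLEC9A, a receptor for dead cells, was found in 12.4% of the selected cells, the chemokine receptor gene XCR1 in 9 cells, and FLT3, the growth factor receptor of dendritic cells, in 41.3% at 55.1 CPM. The type 2 list was lower, with 1 of 6 genes past 2-fold (CD1E, 51.2 against 0.817 CPM) and a median of 0.78. SIRPA, another type 2 gene, stood at 41.2 CPM here and at 177.1 CPM in the macrophage set.

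In the list of plasmacytoid genes 8 of 12 were past 2-fold, with a median of 1.32. The list was not particular to the selected cells. It summed to 1037.8 CPM there, 1273.5 CPM in the B cell set, 772.8 CPM in the stromal set, 696.2 CPM in the macrophage set and 239.9 CPM in the T cell set. TCF4 was found in 64.9% of the selected cells at 286.6 CPM, against 65.9 CPM in other barcodes and 514.5 CPM in the B cell set. RUNX2, a transcription factor of plasmacytoid cells, stood at 60.5 CPM and was nearly absent from the macrophage (0.643 CPM), B cell (9.02 CPM) and T cell (9.60 CPM) sets. SPIB (37.8 CPM) and IRF7 (38.4 CPM), transcription factors of the same cells, were found in 26.4% and 27.3% of the selected cells.

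Genes of maturation were mixed, with 6 of 13 past 2-fold and a median of 0.94. CCR7, the receptor that guides cells to lymph nodes, was found in 29.8% of the selected cells (168.6 CPM), FSCN1, an actin bundler of mature dendritic cells, in 26.4%, and the costimulatory gene CD86 in 63.2%. CD80, CD40 and CCL22, also genes of mature cells, were found in 2.07%, 4.13% and 2.48%. In the NF-kB and inflammation list 7 of 11 genes were past 2-fold, among them the inhibitor NFKBIA (262.6 CPM) and the chemokine CXCL8 (743.8 CPM). Both were higher still in the macrophage set, at 1405 and 8550 CPM. Of the interferon response list, 1 of 12 genes was past 2-fold, with a median of 0.40. Among cell division genes the count was 4 of 12, and TOP2A, needed to separate replicated DNA, was found in 15.7% of the selected cells.

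A part of these cells went against the dendritic label. Although CD79B was barred, CD79A, its partner in the B cell receptor, was found in 128 selected cells (52.9%) and IGHM, the heavy chain of IgM, in 96 (39.7%). PAX5, which fixes B cell identity, was found in 0 cells and MS4A1, a surface protein of mature B cells, in 8 (3.31%), against 43.8% and 57.6% of the B cell set. VPREB3, a gene of early B cells, was found in 36 cells. TCF4 was found in 92.7% of the cells with IGHM and in 46.6% of those without. Of the T cell genes, CD3D was found in 0 cells and CD3G in 4. CD79A was found in 64.3% of the selected cells at 80 days, 43.3% at 120 days and 41.7% at term, and IGHM in 44.3%, 46.3% and 23.3%. These percentages pool cells over animals and genotypes, and 35 of the 67 selected cells at 120 days came from CF donor 5. The share with a B or T cell gene as listed above was 58.2%, 64.3% and 66.7% at the 3 ages in non-CF animals. In CF animals it was 80.0%, 47.2% and 43.6%, and these shares were not tested.

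PTPRC, which encodes the pan-leukocyte protein CD45, was absent from 65 selected cells. In these cells CD74 stood at 911.5 CPM against 6437 CPM in the 177 cells with PTPRC, and the summed acinar genes (digestive enzymes such as CEL and CTRC) reached 33037 CPM against 5657 CPM. The acinar sum was 43325 CPM over all other kept barcodes and 15656 CPM over all selected cells, and its range over animals was 35.2 to 56866 CPM. The summed class II list was 2136 CPM without PTPRC and 17807 CPM with it. Of the 7 listed erythroid genes, 4 were present by name in the count matrices, and their sum was 0 CPM. The globin genes HBB and HBA1 were not among them. The part of acinar RNA in the levels below was not tested.

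The rule admitted cells through PLD4, an endosomal nuclease, or through LAMP3, a lysosomal protein. PLD4 alone admitted 94 cells (38.8%), LAMP3 alone 37 (15.3%), and 111 (45.9%) held both. This division was made after the values had been seen and is given without a test. Cells with both held TCF4 at 551.6 CPM against 95.8 CPM in cells with PLD4 alone, RUNX2 at 121.3 against 10.0 CPM, SPIB at 78.3 against 9.30 CPM, IRF7 at 72.3 against 7.15 CPM and the adaptor of B cell and plasmacytoid signaling BLNK at 425.5 against 24.3 CPM. IGHM (653.2 against 21.5 CPM), CD8B (508.6 against 22.9 CPM), PTPRCAP (490.1 against 37.9 CPM), PLAC8 (1268 against 64.4 CPM) and C1R (1639 against 67.9 CPM), picked after their values were seen, followed the same division. Of the 16 genes listed for plasmacytoid cells, 8 (TCF4, RUNX2, SPIB, IRF7, BLNK, BCL11A, UGCG and SLC15A4) were higher in cells with both in each of the 5 animals that had at least 5 cells of either kind. The other 8 were mixed or sparse. UNC93B1 was higher in cells with both in 4 of the 5 animals and TLR7 in 3, while IRF4 was higher in cells with PLD4 alone in 4 and ZEB2 in 3. Genes outside this list were also higher in cells with both in 5 of 5 animals, among them HSPA6, DNAJB1, PSMB9, CD74 and the rule gene IRF8. The share of all genes that did so was not counted, so the 8 of 16 cannot be read as particular to the plasmacytoid list. The acinar sum was 15299 CPM with PLD4 alone and 9838 CPM with both, and its part in this division was not tested.

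Several myeloid genes were higher in cells with PLD4 alone, while the genes listed for conventional type 1 cells were split, with a summed level of 1057 CPM in cells with PLD4 alone and 1109 CPM in cells with both. BATF3 stood at 102.3 CPM against 51.4 CPM in cells with both, CLEC9A at 48.6 against 10.8 CPM, the growth factor receptor gene CSF1R at 76.5 against 23.9 CPM, and the calcium-binding proteins S100A4 at 1453 against 616.8 CPM and S100A9 at 312.6 against 44.8 CPM. CLEC9A, CSF1R and S100A9 were higher in cells with PLD4 alone in 4 of the 5 animals and higher in cells with both in 0, and BATF3 was split 3 against 2. In the same animals FLT3 and TLR3 were higher in cells with both in 5 of 5, and CADM1 and NAAA in 4. The share of selected cells with PLD4 alone was 34.5% (19 of 55) at 80 days, 35.7% (5 of 14) at 120 days and 28.6% (6 of 21) at term in non-CF animals. In CF animals it was 31.7% (19 of 60), 35.8% (19 of 53) and 66.7% (26 of 39). At term the 3 CF newborns differed, with 2 of 7 such cells in donor 1, 9 of 12 in donor 2 and 15 of 20 in donor 3. The cells with LAMP3 alone held PTPRC in 37.8% and an acinar sum of 28248 CPM. Their FSCN1 stood at 217.8 CPM, against 49.0 CPM in cells with both and 25.0 CPM in cells with PLD4 alone.

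**Figure D2:**
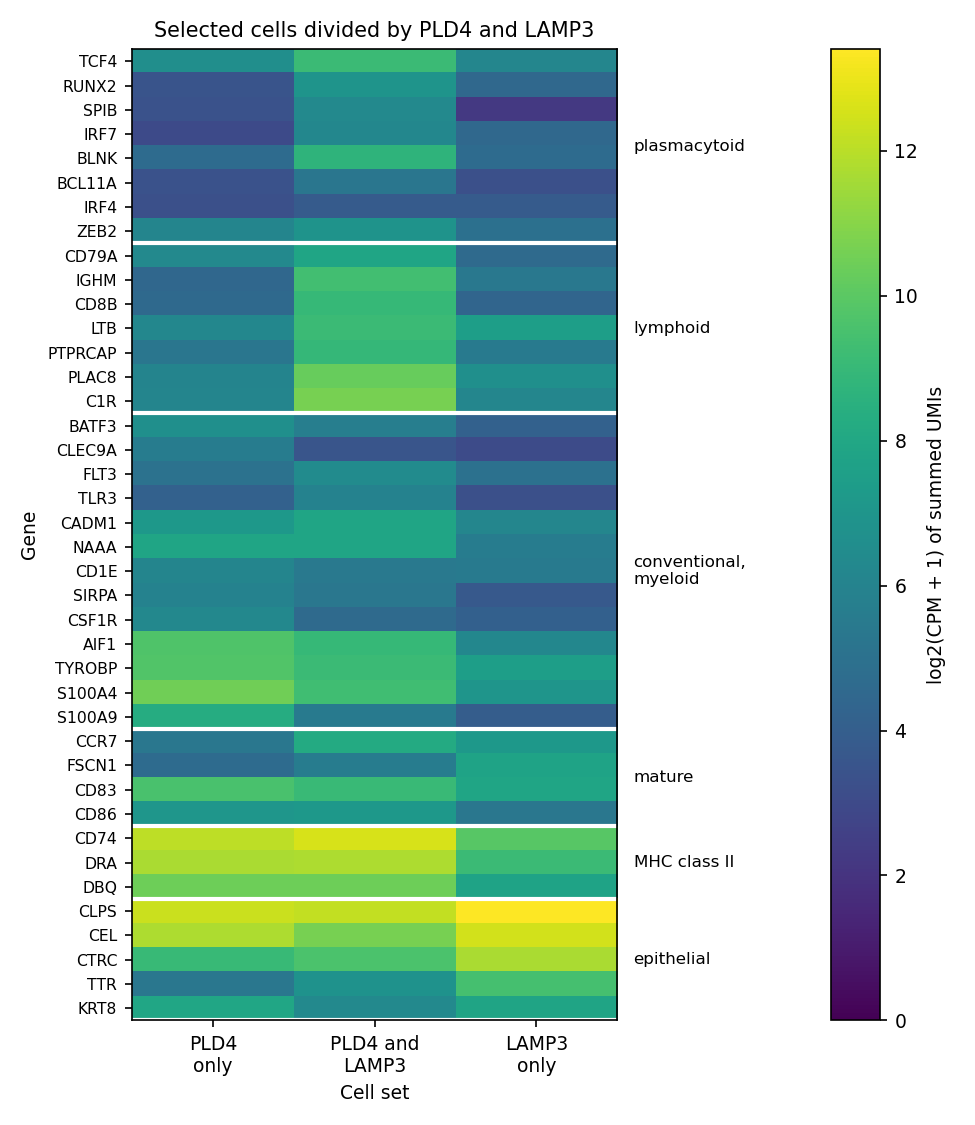
Level of each gene as log2(CPM + 1) of summed UMIs in the selected cells with PLD4 only (94 cells), PLD4 and LAMP3 (111 cells) and LAMP3 only (37 cells). TCF4 is bright where both were present (551.6 CPM) and lower with PLD4 only (95.8 CPM), as are IGHM and PTPRCAP, whereas CLEC9A, CSF1R and S100A9 are brighter with PLD4 only and FLT3 and TLR3 are not.

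The selected cells made up 0.273%, 0.796%, 0.976% and 0.757% of the kept barcodes in non-CF donors 1 to 4 at 80 days (0.700% ± 0.301, SD, n = 4). They made up 0.743%, 0.864% and 0.691% in CF donors 1 to 3 (0.766% ± 0.0887, SD, n = 3). The CF values lay inside the non-CF range, and the difference of 0.0659 percentage points did not pass a two-sided exact permutation test over animals (p = 0.914, adjusted p = 0.914 over the 7 share comparisons, Benjamini-Hochberg). The smallest p that 3 against 4 animals allow is 0.0571.

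At 120 days the shares were 0.0764%, 0.257% and 0.164% in WT donors 1 to 3 (0.166% ± 0.0903, SD, n = 3). In the 6 CF fetuses the lowest was 0%, the median 0.125% and the highest 0.897% (0.224% ± 0.339, SD, n = 6). The highest came from naturally bred donor 5, far above the other 5 fetuses, which were at or below 0.198%. The groups overlapped and the difference of 0.0584 points had p = 0.881 (adjusted p = 0.914, two-sided exact permutation test, smallest possible 0.0238), with the opposite sign when donor 5 was left out (-0.0761).

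At term the shares were 0%, 0.178%, 0.0308% and 0.0997% in WT donors 1 to 4 (0.0772% ± 0.0792, SD, n = 4) and 0.0749%, 0.339% and 0.485% in CF donors 1 to 3 (0.300% ± 0.208, SD, n = 3). CF donors 2 and 3 lay above every WT newborn and CF donor 1 among them, and the difference of 0.222 points (3.88-fold) had p = 0.171 (adjusted p = 0.4, two-sided exact permutation test). It was 0.130 points without CF donor 3, 0.335 without CF donor 1, 0.408 without naturally bred CF donors 1 and 2, 0.141 without cells holding B or T cell genes and 0.0698 after thinning. After every barcode was thinned to 2000 UMIs, the term means were 0.0453% in WT and 0.115% in CF. Thinning left out 813 non-CF and 467 CF barcodes at 80 days, 768 and 2064 at 120 days, and 1397 and 1496 at term. The rule was applied anew to the thinned counts, so barcodes barred at full depth for an excluded gene could enter. CF donor 1 at 80 days held 15 selected cells at full depth and a mean of 23.7 over the thinning draws. The macrophage set at term made up 0.576%, 3.42% and 1.24% of kept barcodes in CF donors 1 to 3 and at most 0.299% in WT newborns. The T cell set had a mean of 0.166% in CF and 1.01% in WT newborns, and the B cell set of 0% and 0.0722%. These differences were not tested. None of the 7 share comparisons was past an adjusted p of 0.05 (percent called 0). The smallest exact permutation p that the animal numbers allow is 0.0571 or 0.0238, depending on the comparison. After adjustment over the 7 comparisons none of them could have passed 0.05, so this count was fixed by the design and says nothing about the shares.

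In percentage points, both differences between 80 and 120 days were the largest of the 7 in share. In non-CF fetuses the share was lower at 120 days by 0.535 points (0.237-fold) and the groups did not overlap, with the smallest p the design allows (0.0571, adjusted p = 0.333, two-sided exact permutation test). In CF fetuses it was lower by 0.542 points (0.293-fold) and donor 5 at 120 days lay above the 80-day values (p = 0.0952, adjusted p = 0.333, two-sided exact permutation test); without donor 5, left out here for its high value, the difference was -0.677 points with an unadjusted exact permutation p of 0.0357, the smallest that 5 against 3 animals allow. Leaving out any other 1 animal gave an unadjusted exact permutation p of 0.143 to 0.214. Term against 120 days gave -0.0885 points in non-CF (p = 0.286, adjusted p = 0.5) and 0.0755 points in CF animals (p = 0.738, adjusted p = 0.914) in the same exact permutation test.

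With both genotypes pooled, an analysis chosen after these values were seen, the share was 0.729% ± 0.221 (SD, n = 7) at 80 days and 0.205% ± 0.273 (SD, n = 9) at 120 days. Permuting ages within genotype over all 2940 arrangements gave a mean difference of -0.538 points and p = 0.00612 (two-sided exact permutation test), and p = 0.00816 after thinning, at 0.778% ± 0.340 (SD, n = 7) and 0.211% ± 0.330 (SD, n = 9). The thinned shares can include barcodes that were barred at full depth. Set against the number of barcodes with PTPRC, all selected cells, including those without PTPRC, came to 5.00% ± 1.15 (SD, n = 7) and 3.57% ± 4.19 (SD, n = 9). The difference was not past 0.05 (exact permutation p = 0.294). The selected cells without a UMI of CD79A, PAX5, MS4A1, VPREB3, CD3D or CD3G made up 0.214% ± 0.153 (SD, n = 7) and 0.0977% ± 0.170 (SD, n = 9), a difference not past 0.05 either (exact permutation p = 0.228). The macrophage set (1.10% ± 0.595 against 0.404% ± 0.342, exact permutation p = 0.00408) and the B cell set (1.94% ± 1.38 against 0.352% ± 0.462, exact permutation p = 0.0129) were lower at 120 days too. The T cell set had an exact permutation p of 0.467. The p-values of this pooled analysis are not adjusted over its 9 measures. They treat the animals as independent and ignore litters, although the 80-day non-CF triplets, a pair of the 80-day CF clones, at least a pair of the 120-day CF clones and the naturally bred CF twins at 120 days shared a pregnancy. WT donors 1 and 2 at 120 days, numbered like littermates, may have done so too.

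**Figure D3:**
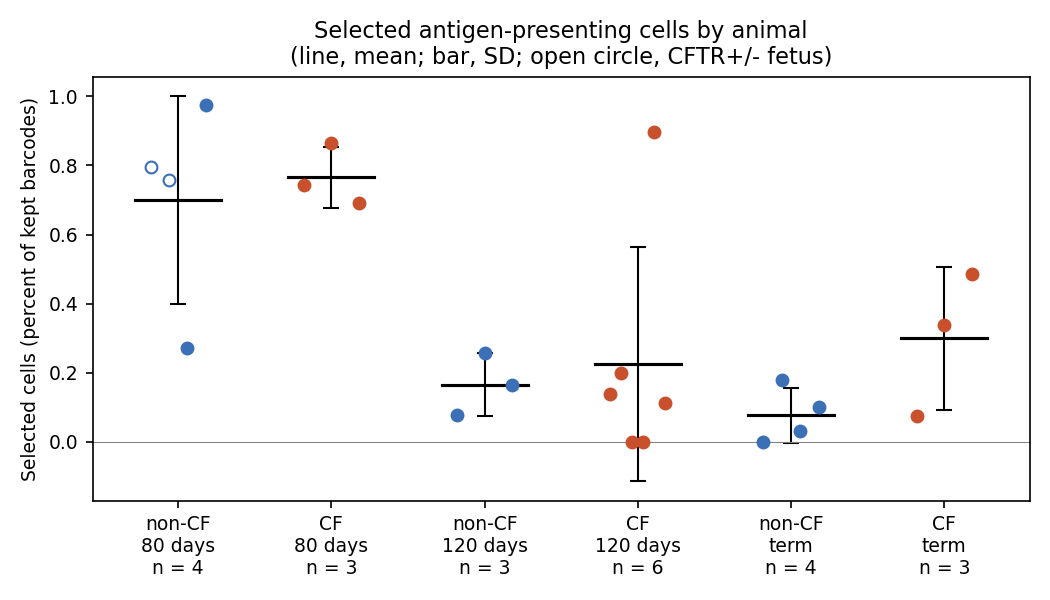
Selected cells as a percentage of the kept barcodes of each animal, by genotype and age, with the mean (line) and SD (bar) of each group and open circles for the CFTR+/- fetuses. The 80-day animals lie between 0.273% and 0.976%, all 3 WT fetuses at 120 days lie at or below 0.257%, and CF donor 5 at 120 days stands alone at 0.897%.

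Gene levels were compared over animals with at least 10 selected cells, which left 3 non-CF fetuses (donors 2 to 4, the triplets) and 3 CF fetuses at 80 days, 2 CF fetuses at 120 days (donors 1 and 5), 1 WT newborn (donor 2) and 2 CF newborns (donors 2 and 3). No WT fetus at 120 days had so many. In edgeR's quasi-likelihood test with Benjamini-Hochberg adjustment, CF against non-CF at 80 days called 0 of 5922 genes (percent called 0), while 263 genes (4.44%) had an unadjusted p under 0.05, and DESeq2 called 18.

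Heat shock genes, which encode chaperones made when proteins unfold, were among those closest to the threshold at 80 days. HSPA1A, an inducible member of the HSP70 family, stood at 370 CPM, 701 CPM and 285 CPM in the selected cells of CF donors 1 to 3 and at 16.3 CPM, 18.1 CPM and 11.5 CPM in non-CF donors 2 to 4. The groups did not overlap, and the log2 fold change was 4.84 ± 0.95 (SE) with an adjusted p of 0.22 in edgeR. HSPA1B, a near-identical copy with which HSPA1A may share reads, was named after its values were seen. It had a log2 fold change of 2.74 (adjusted p = 0.205 in edgeR). DNAJB1, a cochaperone of HSP70, stood at 2834 ± 412 CPM in CF and 400 ± 76.5 CPM in non-CF fetuses (SD, n = 3 each; log2 fold change 2.80, adjusted p = 0.223 in edgeR). Among genes singled out after their values were seen, BAG3, another HSP70 cochaperone, stood at 1763 CPM, 980 CPM and 643 CPM in CF and 20.3 CPM, 43.5 CPM and 31.6 CPM in non-CF fetuses, DNAJA4 had a log2 fold change of 4.75 (adjusted p = 0.205 in edgeR) and HSPA6 of 3.90 (adjusted p = 0.22). Genes on the other side, also singled out after their values were seen, were as close to the threshold. MT2A, a metal-binding metallothionein, had a mean of 13.7 CPM in CF and 420.7 CPM in non-CF fetuses (log2 fold change -4.86 ± 0.87, SE; adjusted p = 0.205 in edgeR) and was called in 4 of 22 settings, and FXYD3, a regulator of the sodium pump, had a log2 fold change of -3.80 (adjusted p = 0.205).

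HSPA1A and DNAJB1 were also higher in the other kept barcodes of these CF fetuses. HSPA1A stood there at 178 CPM, 232 CPM and 132 CPM in CF and between 12.4 CPM and 30.2 CPM in non-CF fetuses, and DNAJB1 at 1240 ± 347 CPM and 355 ± 65.8 CPM (SD, n = 3 each). The cloning, litter and handling of these fetuses cannot be told apart from genotype. At 120 days, cloned CF donor 1 had 705 CPM of HSPA1A in its selected cells and naturally bred donor 5 had 41.3 CPM. In the list of immediate early and stress genes 11 of 12 were above 0 at 80 days, with a median log2 fold change of 1.10, against 0.01 over all genes tested, and none was called. In 22 settings of the fit, HSPA1A and DNAJA4 were called in 8, and BAG3 and DNAJB1 in 7.

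**Figure D4:**
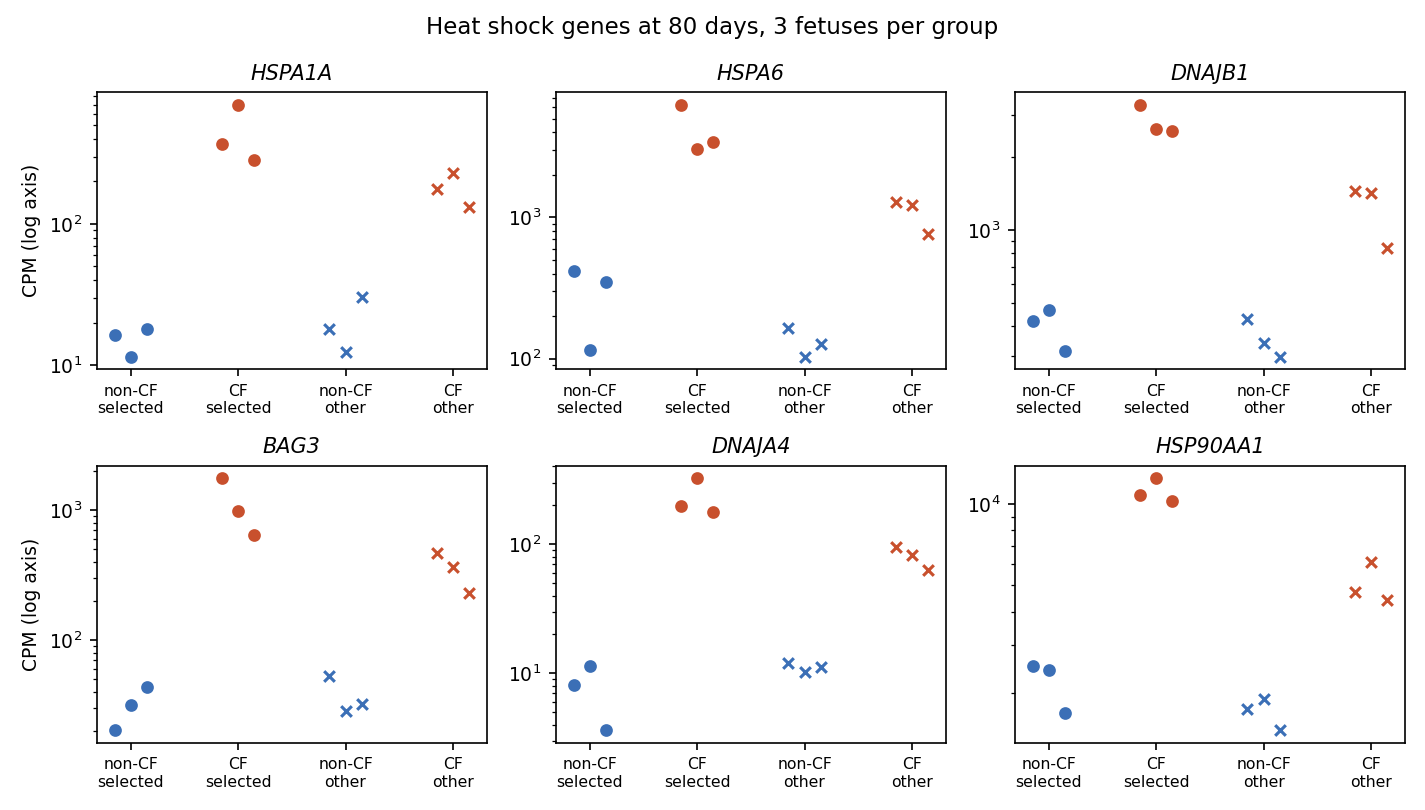
Level of 6 heat shock genes in CPM (log axis) at 80 days in the selected cells (circles) and the other kept barcodes (crosses) of 3 non-CF and 3 CF fetuses. CF fetuses lie above non-CF fetuses in both kinds of barcodes, with HSPA1A at 285 to 701 CPM against 11.5 to 18.1 CPM in the selected cells.

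The antigen presentation genes overlapped between the groups at 80 days. CD74 stood at 5663 CPM, 3783 CPM and 5847 CPM in CF and 3279 CPM, 6004 CPM and 2593 CPM in non-CF donors, with overlapping groups and a log2 fold change of 0.34 ± 0.41 (SE, adjusted p = 0.999 in edgeR). For the class II list the median log2 fold change was -0.09, with 4 of 14 above 0 and 0 called. In the plasmacytoid list 9 of 10 genes were above 0 with a median of 0.80, as for TCF4 at 538 ± 138 CPM in CF and 333 ± 212 CPM in non-CF fetuses (SD, n = 3 each), and 0 were called. Of the interferon response list 0 of 8 were above 0 (median -0.98) and 0 were called. MX1, an antiviral GTPase, was at 131 CPM in WT donor 3 and at most 8.13 CPM in the other 5 fetuses. The type 1 list had a median of 0.06 and the mature list of 0.

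Age was compared within the CF animals. Between 120 and 80 days edgeR called 0 of 5922 genes (percent called 0; 404 genes, 6.82%, at an unadjusted p under 0.05; DESeq2 called 20), and between term and 120 days 0 (601 genes, 10.1%; DESeq2 called 10). All 8 acinar genes were above 0 between 120 and 80 days with a median of 3.03. The acinar sum in the selected cells was 35.2 to 6151 CPM at 80 days and 12875 to 37066 CPM at 120 days in CF fetuses, and its part in that comparison was not tested. Term against 80 days, a comparison added after the data were seen, called 4 genes (0.0675%, of which 1 higher, 0.0169%, and 3 lower, 0.0507%; 779 genes, 13.2%, at an unadjusted p under 0.05; DESeq2 called 43). This rests on 2 newborns, 1 cloned male and 1 naturally bred female, and on 3 cloned male fetuses.

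IL10, the cytokine that restrains antigen presentation, had 24 and 21 UMIs in the selected cells of CF term donors 2 and 3, that is 122 CPM and 142 CPM. It had 1, 0 and 1 UMIs in the 80-day CF fetuses. The rate was 62.3 times higher at term (95% exact interval 16.3 to 530.2 for counting error only), with an adjusted p of 0.0162 in edgeR. The groups did not overlap, and the WT newborn and all other animals in the fit had at most 1 UMI. In the macrophage list of these cells the CF newborns were also higher, with a sum of 148 to 474 CPM against 43.3 to 83.7 CPM at 80 days, while the C1Q genes are at 0 by the rule. The mast cell and granulocyte list summed to 51.0 CPM in one CF newborn and 2913 CPM in the other, against 18.9 to 303 CPM at 80 days. Stromal genes summed to at most 15.3 CPM in the CF newborns and 16.2 to 2549 CPM at 80 days, and endocrine genes to at most 45.9 CPM and 45.8 to 2314 CPM. The part of these lists in the IL10 difference and in the other called genes was not tested.

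The other 3 called genes fell from 80 days to term. IGHM had 201, 217 and 195 UMIs in the 80-day CF fetuses and 1 and 1 at term (649 ± 60.2 CPM, n = 3, against 5.93 ± 1.20 CPM, n = 2, SD; adjusted p = 0.0436 in edgeR). PTPRCAP, a partner of CD45 known from lymphocytes, had 108, 114 and 166 UMIs against 2 and 1 (adjusted p = 0.0436). MXRA8, a cell surface protein best known as a receptor of some viruses, had 88, 99 and 133 UMIs against 1 and 2 (adjusted p = 0.0109). The rates at 80 days were 111 times (IGHM, 95% exact interval 30.5 to 916.0), 46.7 times (PTPRCAP, 15.9 to 227.5) and 38.5 times (MXRA8, 13.1 to 187.8) those at term. All 3 were among the genes of the cells with both PLD4 and LAMP3. WT term donor 2 did not share the low values, with 53 UMIs of IGHM, 26 of PTPRCAP and 27 of MXRA8. MXRA8 was called in 18 of 22 settings, IL10 in 15, IGHM in 13 and PTPRCAP in 12. With either CF newborn left out, or both naturally bred CF animals of the fit, 0 of the 4 stayed called, and with CF 80-day donor 2 or donor 3 left out 1 did. With animals of at least 2 selected cells, which adds CF term donor 1 among others, edgeR called 4 other genes and 0 of these, at adjusted p of 0.0590 (IGHM), 0.0808 (MXRA8), 0.125 (IL10) and 0.156 (PTPRCAP). DESeq2 gave no adjusted p for IL10.

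The listed genes that follow did not pass the threshold. BATF3 stood at 178 CPM and 237 CPM in the CF newborns against 35.2 CPM, 32.5 CPM and 30.1 CPM in the 80-day CF fetuses, with no overlap (log2 fold change 2.86 ± 0.53, SE; adjusted p = 0.0886 in edgeR). BLNK stood at 5.10 CPM and 33.9 CPM against 440 CPM, 420 CPM and 506 CPM (log2 fold change -4.42, adjusted p = 0.103). In the plasmacytoid list 1 of 10 genes was above 0 (median -2.05) and in the class II list 13 of 14 (median 1.32), against a median of -0.12 over all genes tested, with 0 called in either list. In the interferon response list 7 of 8 genes were above 0 (median 2.44) and 0 were called, and its sum ranged from 194 to 1077 CPM in the CF newborns and from 184 to 252 CPM in the 80-day CF fetuses. DRA stood at 5065 CPM and 4376 CPM at term and 2231 CPM, 1713 CPM and 2505 CPM at 80 days (log2 fold change 1.38 ± 0.60, SE; adjusted p = 0.363 in edgeR). All 12 cell division genes were at or below 0 (median -3.81, 0 called), and TOP2A ranged from 3.52 CPM to 712 CPM among the 80-day CF fetuses alone. The lymphotoxin gene LTB, picked after its values were seen, had 102, 135 and 153 UMIs at 80 days and 0 and 0 at term.

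**Figure D5:**
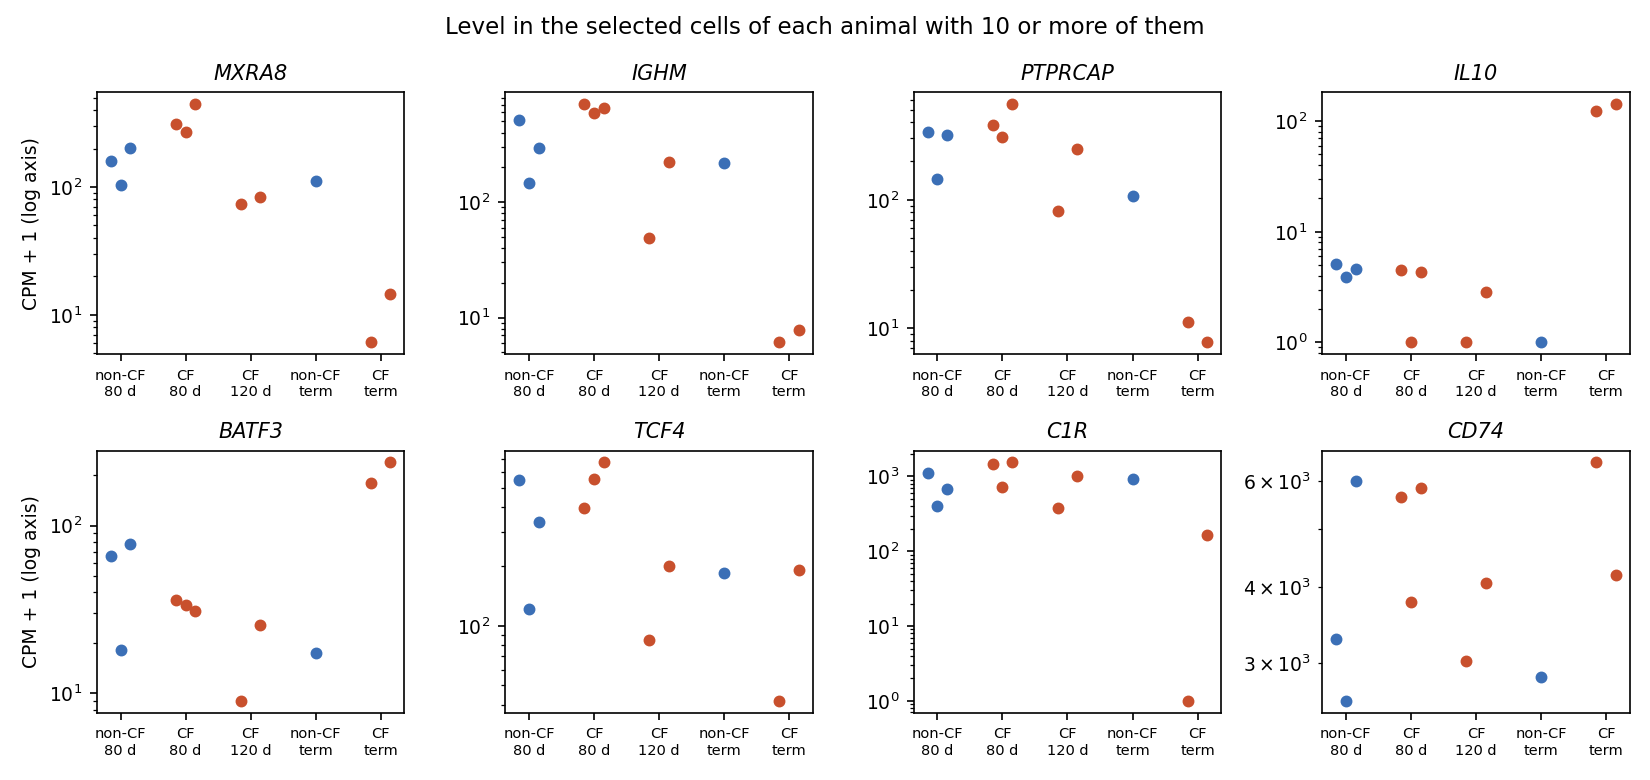
Level in the selected cells of each animal with at least 10 of them, as CPM + 1 on a log axis, by genotype and age. MXRA8, IGHM and PTPRCAP lie lowest and IL10 and BATF3 highest in the 2 CF newborns, the WT newborn lies with the fetuses, and CD74 lies between 2593 and 6451 CPM in all 11 animals.

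At term the comparison of genotypes set 2 CF newborns against 1 WT newborn, whose spread is assumed to be that of the other groups. In edgeR 0 of 5922 genes were called (percent called 0; 627 genes, 10.6%, at an unadjusted p under 0.05; DESeq2 called 12). BATF3 stood at 178 CPM and 237 CPM against 16.3 CPM in the WT newborn (log2 fold change 3.04 ± 0.90, SE; adjusted p = 0.318 in edgeR), and CCR7 at 10.2 CPM and 0 CPM against 596 CPM (adjusted p = 0.274). In the interferon response list 7 of 8 genes were above 0 (median 2.05), against a median of -0.06 over all genes tested, and 0 were called. Its sum was 171 CPM in the WT newborn and 194 and 1077 CPM in the CF newborns, so that 1 of them lay near the WT value. The macrophage list summed to 20.4 CPM in the WT newborn and 148 and 474 CPM in the CF newborns, and the mast cell and granulocyte list to 32.6 CPM and to 51.0 and 2913 CPM. The WT newborn had the highest acinar sum, 56866 CPM against 298 to 29359 CPM in the CF newborns. The part of these 3 lists in the comparison was not tested. Whether the genotype difference changed from 80 days to term was tested as an interaction, and 0 genes were called in edgeR (percent called 0; 602 genes, 10.2%, at an unadjusted p under 0.05; DESeq2 called 16). At 120 days genotypes could be compared over animals with at least 2 selected cells only, an added setting, and 0 of 4235 genes were called in edgeR (212 at an unadjusted p under 0.05). The same setting called 0 genes for 120 against 80 days (362) and for term against 120 days (310) in non-CF animals.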

How the data were processed

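Single-cell 3' gene expression libraries of sheep pancreas were analysed from the unnormalized count matrices that the authors deposited, 1 per library, which hold UMI counts for 24478 genes of the Oar_v4.0 assembly; per the labels, Cell Ranger 3.1.0 made them. Barcodes were filtered as the study describes, and breeding and litter were taken from its animal list. The members, gene lists and comparisons were chosen with earlier results of these data known. No doublet caller was run; cells above the 95th UMI percentile of their library were left out as an alternative. Of 8432 genes with a LOC identifier, 672 were named, 579 through RefSeq (assembly ARS-UI_Ramb_v3.0, used for names only) and 93 through the study's marker tables.

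Comparison sets were drawn by rule. The macrophage set had at least 3 UMIs over C1QA, C1QB and C1QC and none of CD3E, CD79B or PECAM1. The B cell set had CD79A and CD79B, and the T cell set CD3E with CD3D or CD3G, each without the markers of the others. The stromal and endocrine sets had no PTPRC and at least 10 UMIs over their 5 marker genes. Shares were tested by exact permutation over animals, two-sided. Replicates are animals, so p-values measure the spread between animals. The gene fit shared 1 estimate of the spread over all groups. At 80 days the animals behind it were 1 litter of triplets and clones of 1 cell line. The CF animals at 120 days and at term added their spread to the same estimate. Selected cells were summed per animal and, for animals with at least 10, fitted in 1 model (edgeR 4.0.16, TMM, quasi-likelihood, filterByExpr, all groups), with Benjamini-Hochberg adjustment and a threshold of 0.05; the script was tested on simulated data. By plan, genes named from a comparison were those called, not overlapping between groups and at 50 CPM or more in the higher group. The listed genes and the 15 leading genes could be named as well. Other genes, among them HSPA1B, HSPA6, BAG3, DNAJA4, MT2A, FXYD3 and LTB, were named after their values had been seen. Alternatives were DESeq2 1.42.0, other filters, stricter rules, thinning to 2000 UMIs (100 draws) and leaving out animals. Analyses used Python 3.11.15, NumPy 2.4.6, SciPy 1.17.1, pandas 2.3.3 and R 4.3.3. Intervals are exact (Clopper-Pearson, 95%) and cover counting error only. One listed gene is not reported here.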

Additional observations from a re-analysis of the deposited data

Results flagged for a closer look

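The share of selected cells in CF 120-day donor 5, 0.897% of its kept barcodes, stood far from those of the other 5 CF fetuses of that age, of which the next was 0.198%. Its gap to the next fetus was 0.779 of the group's range and above Dixon's critical value for 6 samples, a test that flags about 1 in 20 groups by chance. Donor 5 was a naturally bred female with 35 selected cells among 3903 kept barcodes. Its macrophage set (0.948%), B cell set (1.13%) and T cell set (1.43%) were also the highest of the 6 fetuses. Set against its number of barcodes with PTPRC, its 35 selected cells, of which 26 held PTPRC, came to 13.5%. In the other fetuses this value was at most 6.15%.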

How the results depend on the processing

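The selected cells are few, and only 11 of 23 animals had 10 of them, so the gene comparisons rest on 1 to 3 animals per group and say little about genes with small differences. Of 55 share values under planned and added alternatives, 49 kept their direction and side of the threshold and 6 reversed, none of them past the threshold. CF against non-CF at 80 days became -0.0959 points without cells holding B or T cell genes and -0.0149 with PTPRC required. CF against non-CF at 120 days became -0.00456 after thinning, -0.0815 without naturally bred CF fetuses and -0.0535 within donor numbers, and term against 120 days in CF became -0.0944 after thinning. Leaving out 1 animal gave -0.0766 to 0.158 points for CF against non-CF at 80 days, -0.0761 to 0.104 at 120 days and 0.130 to 0.335 at term, -0.677 to -0.493 for 120 against 80 days in CF and -0.677 to -0.443 in non-CF, and -0.0172 to 0.210 for term against 120 days in CF and -0.133 to -0.0429 in non-CF animals.

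Counts of called genes depended on the setting. In the order CF against non-CF at 80 days, CF against non-CF at term, 120 against 80 days in CF, term against 120 days in CF, term against 80 days in CF and the interaction, DESeq2 called 18, 12, 20, 10, 43 and 16 genes. Without a filter on low counts edgeR called 96, 188, 173, 196, 302 and 189, without cells of the top UMI percentiles 3, 17, 8, 4, 67 and 31, and with PTPRC required 11, 10, 28, 8, 62 and 18. With at least 20 cells per animal, which leaves 5 animals and 1 residual degree of freedom, it called 84, 200, 211 and 462 in the 4 comparisons that could be fitted, all but term CF against non-CF and the interaction. Without naturally bred CF animals it called 5 at 80 days, 1 for 120 against 80 days and 0 for term against 80 days. The cause of these shifts was not tested. Leaving out 1 animal gave 0 to 8 genes at 80 days (8 without CF 120-day donor 1 or donor 5), 0 to 1 for 120 against 80 days, 0 to 4 for the interaction, 0 to 6 for term against 80 days in CF, and 0 for both other comparisons.

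Donor numbers mark different animals at each age and genotype, and the same-numbered animals did not deviate together (r from -0.27 to 0.24 over genes), so the replicate block was not used for the reported values. With the replicate block edgeR called 8 genes for term against 120 days in CF, 44 for term against 80 days in CF, with all 4 reported genes among them, and 0 elsewhere. Share differences within donor numbers were 0.0847, -0.0535 and 0.23 points for CF against non-CF at 80 days, 120 days and term over 3 pairs each. The fit without B or T cell genes could not be made for any gene comparison, nor term CF against non-CF and the interaction without WT term donor 2.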
